A study of Mus musculus with 8 samples.

Results

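The 9 genes described here are the surface proteins, the transducer and the transcription factors through which a cell receives a Hedgehog signal. They are Ptch1, Hhip, Boc, Cdon and Gas1 at the cell surface, Smo in the membrane behind them, and the transcription factors Gli1, Gli2 and Gli3. They were taken by gene symbol, and all 9 were found among the 24047 rows of the deposited count table. RNA was sequenced from 8 libraries of tdTomato-positive cells sorted from mouse somatosensory cortex, 4 labelled Ptch1cKO and 4 labelled WT. Ptch1cKO mice carried Glast-CreERT2, the Ai14 reporter and 2 floxed copies of Ptch1 (Ptch1fl/fl). WT mice carried Glast-CreERT2 and Ai14 alone, so Cre and reporter were present in all 8 libraries. Tamoxifen was injected on postnatal days 12 to 14 in both groups, and cells were sorted at postnatal days 23 to 25. The Glast promoter is active in astrocytes and in their progenitors, and tamoxifen lets CreERT2 enter the nucleus and recombine floxed DNA. The tdTomato signal reports recombination of Ai14, a different locus from Ptch1, so it does not measure how many sorted cells lost Ptch1. Whether the 4 libraries of a group are 4 animals is not stated in the labels, and the p-values below therefore reflect spread among libraries that may be partly technical.

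Hedgehog ligands bind Ptch1, which without ligand keeps Smo inactive at the primary cilium. Active Smo stops the Gli proteins from being cut into repressors and lets them switch genes on. Ptch1, Hhip and Gli1 are themselves classical targets, so that an active pathway makes more of its own receptor, its ligand trap and its activator. Boc, Cdon and Gas1 are coreceptors that present ligand to Ptch1. In the cortex, Sonic hedgehog is made by neurons, and part of the astrocytes respond to it.

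The libraries held 4061274 to 7043378 counts in Ptch1cKO and 4958119 to 7206462 counts in WT. All 10 astrocyte markers examined were present in every library, and their summed level was 18680.0 to 37666 CPM in Ptch1cKO and 24039 to 34955 CPM in WT (CPM, counts scaled by library size). Markers of other cells were present too. The 10 oligodendrocyte lineage markers summed to 17045 to 22619.7 CPM in Ptch1cKO and 13525 to 26237 CPM in WT, with Mbp the largest part. The 10 neuron markers summed to 4446 to 5497 CPM in Ptch1cKO and 4601 to 6189 CPM in WT, and the 10 microglia markers to 281 to 616 CPM in Ptch1cKO and 234 to 480.2 CPM in WT. The 6 endothelial markers summed to 4.63 to 14.2 CPM in Ptch1cKO and 3.20 to 17.1 CPM in WT, with Cldn5 at 0 in 4 of 8 libraries. The 7 mural and fibroblast markers summed to 14.5 to 21.8 CPM in Ptch1cKO and 16.3 to 36.0 CPM in WT, with Kcnj8, Dcn and Lum each at 0 in 4 libraries. Of the microglia markers 10 of 10 had positive fold changes (Ptch1cKO over WT, median log2 0.65), as had 8 of the 9 oligodendrocyte lineage markers that passed the count filter (median log2 0.33). Oligodendrocyte lineage cells and neurons also express genes of this pathway, and the part of these cells in the levels below was not tested. In such mixed RNA, fewer cells of a type and less RNA per cell cannot be told apart. Xist, the transcript of the inactive X chromosome, had at most 4 counts in any Ptch1cKO library, whereas WT replicate 2 had 1148 and WT replicate 3 had 612 counts and the remaining WT libraries at most 4. The Y-linked Ddx3y was at 0 in those 2 WT libraries and present in the other 6. By these counts WT held libraries of both sexes, so the WT libraries did not all come from a single animal. Every Ptch1cKO library had the male pattern, so sex was not balanced between the groups.

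The 3 Gli factors bind DNA through 5 zinc fingers of nearly the same sequence, and each gene's count therefore depends on reads that tell the genes apart. Over the 453 coding bases from the first to the last finger of the longest coding sequence of each gene in GENCODE M21, Gli2 and Gli3 were identical at 80.8% of bases, Gli1 and Gli2 at 81.5%, and Gli1 and Gli3 at 75.9%. Within these 453 bases, the 120 with the most bases identical in all 3 genes are shown, with capitals for those 96 bases. They are bases 1051 to 1170 of the Gli1 coding sequence, 1588 to 1707 of Gli2 and 1777 to 1896 of Gli3.
Gli1: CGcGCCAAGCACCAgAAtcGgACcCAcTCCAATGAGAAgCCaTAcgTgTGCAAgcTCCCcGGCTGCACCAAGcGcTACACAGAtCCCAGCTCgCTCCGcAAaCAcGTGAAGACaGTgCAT
Gli2: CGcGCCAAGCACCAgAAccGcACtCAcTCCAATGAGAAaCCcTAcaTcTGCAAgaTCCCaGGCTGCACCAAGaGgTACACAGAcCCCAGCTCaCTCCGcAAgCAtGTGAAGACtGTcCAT
Gli3: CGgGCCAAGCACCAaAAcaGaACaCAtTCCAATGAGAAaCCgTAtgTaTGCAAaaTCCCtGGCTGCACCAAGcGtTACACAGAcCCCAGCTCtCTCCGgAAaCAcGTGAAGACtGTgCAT
The differing bases lie mostly 3 bases apart. Over the whole coding sequences, the longest run identical between any pair was 25 bases, between Gli2 and Gli3. No stretch of 50 bases was shared between transcripts of any pair of the 9 genes. Smo shared 1.56% of its 50-base stretches with the annotated gene Gm4066, and Ptch1 at most 0.076% with any other gene.

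In the edgeR quasi-likelihood test 0 of the 9 genes had a Benjamini-Hochberg adjusted p under 0.05, a threshold passed by 11 of the 10956 genes tested, or 0.1%. By direction 0.0821% of genes passed as higher in Ptch1cKO and 0.0183% as lower. Hhip, Smo and Ptch1 had an unadjusted p under 0.05, 3 of 9 against 9.34% of all genes tested. Hhip and Smo were the 2 that were higher in Ptch1cKO, against 4.8% of all genes, and Ptch1 was lower, against 4.54%. DESeq2 called 1 of the 9, Hhip, against 0.721% of all genes, and gave no adjusted p for 3 of the 9, Gli1, Cdon and Gas1. By limma-voom 0 of the 9 were called, against 0.0913% of all genes. Without the count filter edgeR called 2 of the 9, Ptch1 and Hhip, against 0.967% of the genes then tested. In all, 6 of the 9 had positive and 3 negative log2 fold changes, with a median of 0.23, beside -0.0017 over all genes tested. A total of 7 passed the filter on low counts, and Gli1 and Gas1, which lay below it, were kept in the fit as the rule for this family asks.

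**Figure D1:**
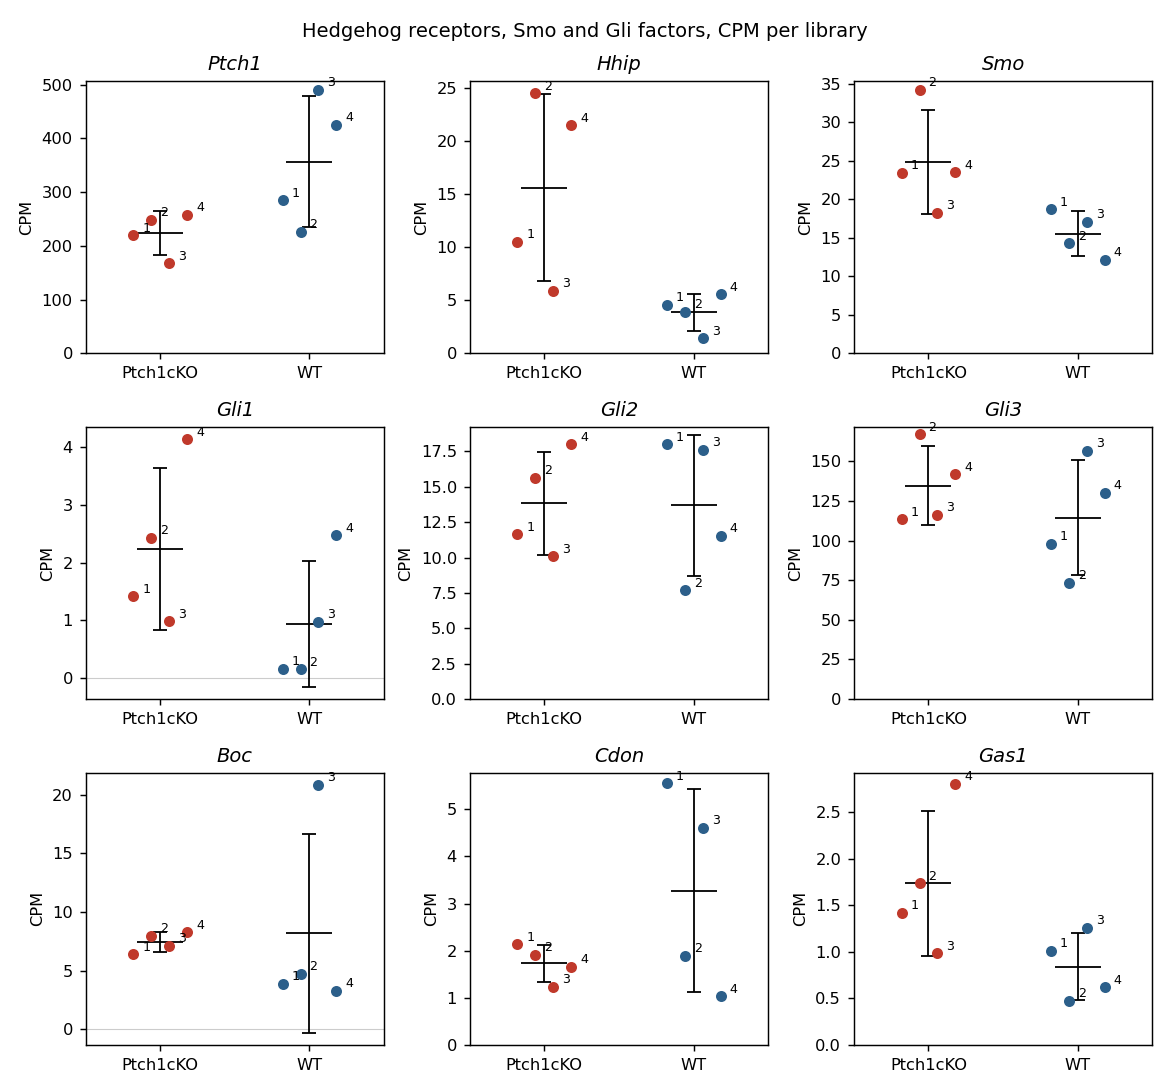
CPM of the 9 genes in each library, with Ptch1cKO left of WT in every panel, replicate numbers beside the points, and bars for the mean ± SD of 4 libraries. Hhip is the gene whose 4 Ptch1cKO libraries all lie above its 4 WT libraries, and Ptch1 in WT is split between replicates 3 and 4, at 491 and 425 CPM, and replicates 1 and 2, at 285 and 227 CPM.

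Ptch1, the receptor that was floxed, lies on chromosome 13 at 63508328 to 63573598 on the minus strand (GENCODE M21, GRCm38, the assembly also called mm10). It had 219, 249, 168 and 258 CPM in Ptch1cKO replicates 1 to 4, against 285, 227, 491 and 425 CPM in WT replicates 1 to 4. All 4 Ptch1cKO libraries lay below WT replicates 1, 3 and 4, and 2 of them lay above WT replicate 2, so the groups overlapped. The log2 fold change was -0.67 with a standard error (SE) of 0.22, that is 0.63-fold with a 95% interval of 0.45 to 0.86 (edgeR, unadjusted p = 0.00764, Benjamini-Hochberg adjusted p = 0.350). The table holds 1 value for the gene and does not set apart reads of the floxed exons.

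How far Ptch1 lay below WT depended on which WT libraries were used. WT replicates 3 and 4, the pair with the highest Ptch1, also share a column name prefix, s5, and replicates 1 and 2 share s1. No prefix holds libraries of both genotypes, so no comparison within a prefix could be made, and the labels do not say what the prefixes mark. Against WT replicates 1 and 2 alone the log2 fold change of Ptch1 was -0.19 (SE 0.19), and against WT replicates 3 and 4 alone it was -1.03 (SE 0.18). The Benjamini-Hochberg adjusted p from edgeR was 0.801 against replicates 1 and 2 and 0.0991 against replicates 3 and 4.

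The astrocyte marker sum moved with this split. It was 27282, 37666, 18680.0 and 27062 CPM in Ptch1cKO replicates 1 to 4, against 27980.3 and 24039 CPM in WT replicates 1 and 2 and 34955 and 34639 CPM in WT replicates 3 and 4. Slc1a2, the main glutamate transporter of astrocytes, gave most of this sum. It averaged 15927 CPM in Ptch1cKO and 18619 CPM in WT. By fold change, 7 of the 10 markers were positive and 3 negative, so the sum does not stand for every marker. Per 1000 CPM of these markers, Ptch1 had 6.61 to 9.54 CPM in Ptch1cKO and 9.43 to 14.04 CPM in WT, ranges that overlapped slightly. Ptch1cKO replicate 2, with the highest marker sum of all 8 libraries, had 249 CPM of Ptch1, below 3 of 4 WT libraries. The part of astrocyte content in the Ptch1 difference was not tested.

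Ptch1 alone overlapped between the groups, whereas its ratio to Smo and its share of the family did not. The ratio of Ptch1 to Smo in the deposited TPM, which scale for gene length as well as depth, was 8.64, 6.71, 8.49 and 10.1 in Ptch1cKO replicates 1 to 4, against 14.1, 14.6, 26.5 and 32.3 in WT replicates 1 to 4. Ptch1 made up 61.2 to 67.3% of the summed TPM of the 9 genes in Ptch1cKO and 75.6 to 81.5% in WT. Neither range overlapped. Both set Ptch1, lower on average in Ptch1cKO, against Smo or a sum that includes Smo, which was higher on average there. How often ratios of other genes separate the groups was not examined. Both quantities combine genes of this family and are given as values without a test.

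**Figure D2:**
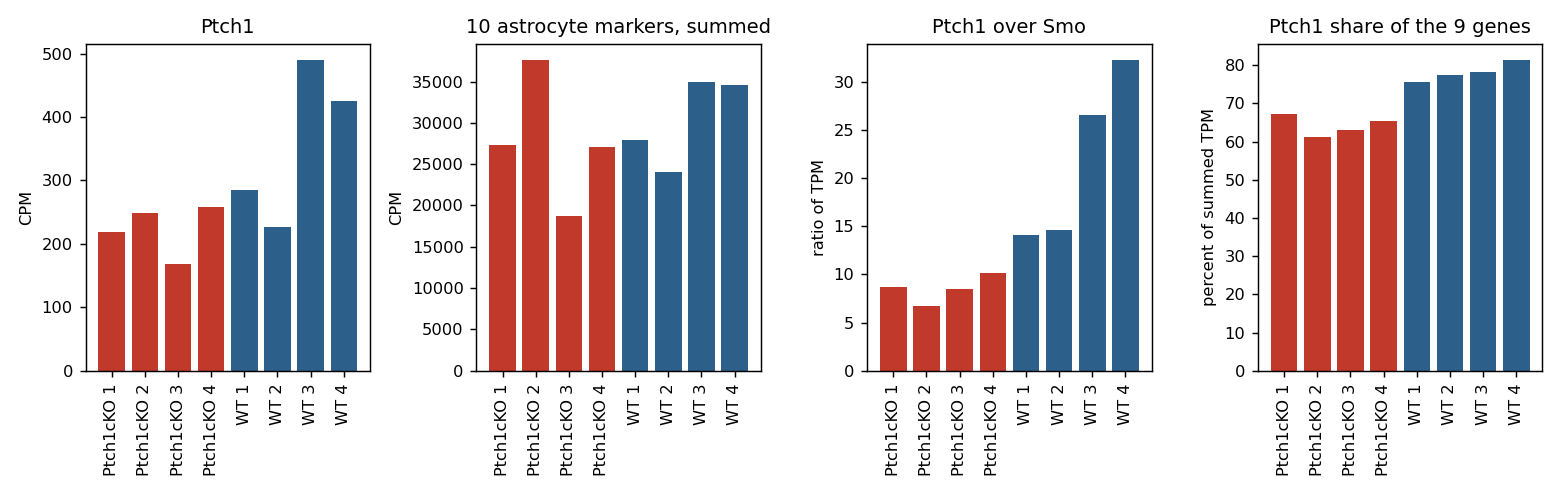
Bars show, for each library with Ptch1cKO left of WT, the CPM of Ptch1, the summed CPM of 10 astrocyte markers, the ratio of Ptch1 to Smo in TPM, and the share of Ptch1 in the summed TPM of the 9 genes. The ratio to Smo lies between 6.71 and 10.1 in Ptch1cKO and between 14.1 and 32.3 in WT, whereas the marker sums of both groups overlap.

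Hhip, a membrane-anchored protein that binds Hedgehog ligands and keeps them from Ptch1, had the largest fold change of the 9 genes. It had 10.5, 24.5, 5.90 and 21.5 CPM in Ptch1cKO replicates 1 to 4, against 4.54, 3.93, 1.40 and 5.56 CPM in WT replicates 1 to 4. All 4 Ptch1cKO libraries lay above the 4 WT libraries, which was the case for 1 of the 9 genes and for 2.52% of all genes tested. Counting either direction, 5.01% of all genes had groups that did not overlap. The margin was narrow, since Ptch1cKO replicate 3 and WT replicate 4 were 5.90 and 5.56 CPM, from 24 and 27 counts. In the deposited TPM the groups overlapped, because Ptch1cKO replicate 3, with 1.54 TPM, lay below WT replicate 4, with 1.73 TPM.

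The log2 fold change of Hhip was 2.04 (SE 0.46), 4.12-fold with a 95% interval of 2.07 to 8.18 (edgeR, unadjusted p = 0.000559, Benjamini-Hochberg adjusted p = 0.146). Its unadjusted p ranked 42 of 10956. DESeq2 called it at nearly the same fold change, 2.03 (Benjamini-Hochberg adjusted p = 0.00382). It was also called by edgeR without the count filter, at 2.05 (Benjamini-Hochberg adjusted p = 1.18e-06). In that fit the estimate hardly moved, but its SE was 0.33 instead of 0.46. Over the 19 alternatives, Benjamini-Hochberg adjusted p-values ran from 1.18e-06 to 0.479 and the log2 fold change stayed between 1.21 and 2.30. In the 6 libraries with under 10 Xist counts it was 1.64 (SE 0.53). Per 1000 CPM of astrocyte markers Hhip had 0.316 to 0.794 CPM in Ptch1cKO and 0.0400 to 0.163 CPM in WT, again without overlap. On that scale 3 of the 9 genes, Hhip, Smo and Gas1, had all Ptch1cKO above all WT libraries, as did 2.92% of all genes tested. Hhip lies on chromosome 8 at 79965851 to 80058006 on the minus strand, and an exon of it overlaps opposite-strand Gm27820.

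The bases before its start are shown as the place where Gli factors could bind nearest to the gene, chosen after its values were seen (RefSeq, GRCm38.p6, chr8:80058009-80058258, minus strand, 250 bases). Capitals mark CCACCC, the core of the Gli motif.
Hhip: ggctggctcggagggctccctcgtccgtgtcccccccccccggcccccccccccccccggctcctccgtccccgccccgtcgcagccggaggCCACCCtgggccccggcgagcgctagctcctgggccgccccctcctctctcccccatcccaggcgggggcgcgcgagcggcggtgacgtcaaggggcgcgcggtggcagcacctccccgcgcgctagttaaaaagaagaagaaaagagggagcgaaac
The core was found once, starting 158 bases before the start. Searched on both strands, it occurred in the windows of 4 of the 7 members in the RefSeq table, Hhip, Smo, Gli2 and Gli3, and in 28.1% of all 32851 windows of that length. The full consensus GACCACCCA, which contains the core, was in 0 of the 7 and in 0.225% of all windows. A match describes the letters of this window only.

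Smo, the membrane protein that Ptch1 restrains, was higher on average in Ptch1cKO. It had 23.4, 34.2, 18.2 and 23.5 CPM in Ptch1cKO replicates 1 to 4, against 18.7, 14.3, 17.1 and 12.1 CPM in WT replicates 1 to 4. In all, 3 Ptch1cKO libraries lay above every WT library, and replicate 3 lay just below the highest WT library. The log2 fold change was 0.68 (SE 0.24), 1.60-fold with a 95% interval of 1.12 to 2.27 (edgeR, unadjusted p = 0.0123, Benjamini-Hochberg adjusted p = 0.404). It was 0.49 to 0.79 when single libraries were left out. Per 1000 CPM of astrocyte markers Smo had 0.859 to 0.974 CPM in Ptch1cKO and 0.351 to 0.667 CPM in WT. These ranges did not overlap, as for 2.92% of all genes tested on that scale. Ptch1cKO replicate 3, which overlapped WT in CPM, had the lowest marker sum of all libraries. The part of astrocyte content in the Smo values was not tested. Smo lies on chromosome 6 at 29735503 to 29761365 on the plus strand.

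**Figure D3:**
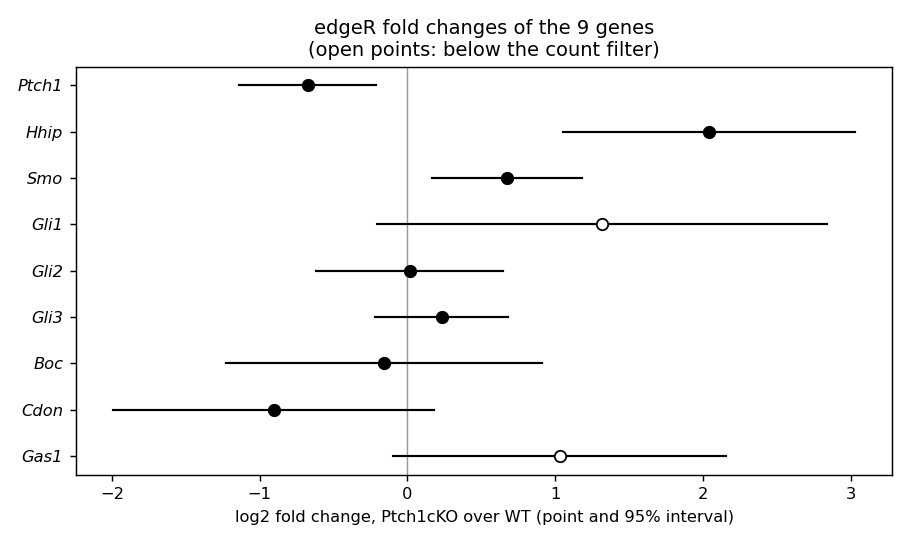
Log2 fold changes of the 9 genes (Ptch1cKO over WT, edgeR, all 8 libraries) with 95% intervals, with open points for Gli1 and Gas1, which lay below the count filter. The intervals of Hhip, Smo and Ptch1 leave out 0, and the other 6 include it.

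Among the Gli factors, Gli3, which acts mainly as a repressor, was by far the most abundant transcript. Gli3 had 113, 167, 116 and 142 CPM in Ptch1cKO replicates 1 to 4, against 97.9, 73.5, 157 and 130.1 CPM in WT replicates 1 to 4. The groups overlapped, and WT replicates 3 and 4 were again above replicates 1 and 2. The fold change was 1.18 with a 95% interval of 0.86 to 1.61 (edgeR, Benjamini-Hochberg adjusted p = 0.790). Gli2, the main activator by which the signal is first relayed, had 11.6, 15.6, 10.1 and 18.01 CPM in Ptch1cKO, against 17.999, 7.70, 17.6 and 11.5 CPM in WT. Its ranges overlapped almost fully, with a fold change of 1.01 and a 95% interval of 0.65 to 1.57 (edgeR, Benjamini-Hochberg adjusted p = 0.993), and its sign turned when single libraries were left out. For both genes these intervals leave out a change of the size estimated for Hhip.

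Gli1, a strong activator made in response to the signal, had few reads. It had 10, 14, 4 and 25 counts in Ptch1cKO, against 1, 1, 7 and 12 counts in WT, which is 1.42, 2.43, 0.984 and 4.13 CPM against 0.168, 0.157, 0.978 and 2.47 CPM. In CPM every Ptch1cKO library lay above 3 of the 4 WT libraries, and WT replicate 4 lay above 3 of the 4 Ptch1cKO libraries. The margin between Ptch1cKO replicate 3 and WT replicate 3 was narrow. In the deposited TPM their order turned, with 0.642 TPM in Ptch1cKO replicate 3 and 0.736 TPM in WT replicate 3. The log2 fold change was 1.32 (SE 0.71), 2.49-fold with a 95% interval of 0.87 to 7.15 (edgeR, unadjusted p = 0.0845, Benjamini-Hochberg adjusted p = 0.610). The estimate was 3.64 against WT replicates 1 and 2 and 0.44 against WT replicates 3 and 4, the pair of libraries that also had the highest Ptch1. An interval this wide holds no change as well as a change as large as that of Hhip. In GRCm38, Gli1 lies on chromosome 10 at 127329882 to 127341974 (minus strand), Gli2 on chromosome 1 at 118834132 to 119053619 (minus strand) and Gli3 on chromosome 13 at 15463235 to 15730026 (plus strand). An exon of Gli1 overlaps opposite-strand Arhgap9 and Gm47200, and an exon of Gli3 overlaps opposite-strand Gm6556, and the labels do not say whether reads were counted by strand.

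The makeup of the Gli transcripts overlapped between the genotypes. Gli3 accounted for 81.5 to 88.6% of the summed TPM of the 3 factors in Ptch1cKO and 80.9 to 88.0% in WT. The share of Gli2 was 9.67 to 13.03% in Ptch1cKO and 9.65 to 18.7% in WT. Gli1 made up 1.74 to 5.52% in Ptch1cKO and 0.324 to 3.82% in WT.

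The coreceptors had low levels, and Boc and Cdon varied more among WT than among Ptch1cKO libraries. Boc had 6.39, 7.99, 7.13 and 8.26 CPM in Ptch1cKO, against 3.87, 4.71, 20.8 and 3.29 CPM in WT. The Ptch1cKO libraries lay close together, above 3 WT libraries and below WT replicate 3, which had 149 counts. With all libraries Boc had a log2 value of -0.16 (SE 0.50; edgeR, adjusted p = 0.965), and without WT replicate 3 it was 0.90 (SE 0.32, edgeR, unadjusted p = 0.0147, Benjamini-Hochberg adjusted p = 0.411).

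Cdon, a relative of Boc with the same kind of immunoglobulin and fibronectin domains, had 2.13, 1.91, 1.23 and 1.65 CPM in Ptch1cKO, against 5.55, 1.89, 4.61 and 1.03 CPM in WT. WT replicates 1 and 3 lay above every Ptch1cKO library, whereas WT replicates 2 and 4 lay among or below them. Its log2 fold change came to -0.91 (SE 0.51; edgeR, Benjamini-Hochberg adjusted p = 0.624). Gas1, a coreceptor anchored in the membrane by a lipid, had 10, 10, 4 and 17 counts in Ptch1cKO and 6, 3, 9 and 3 counts in WT. On the CPM scale 3 of 4 Ptch1cKO libraries lay above all WT libraries, and the log2 fold change came to 1.03 (SE 0.53; edgeR, adjusted p = 0.587). Per 1000 CPM of astrocyte markers Gas1 had 0.0461 to 0.104 CPM in Ptch1cKO and 0.0178 to 0.0361 CPM in WT. Boc lies on chromosome 16 at 44485049 to 44558897 (minus strand), Cdon on chromosome 9 at 35421128 to 35507652 (plus strand) and Gas1 on chromosome 13 at 60174405 to 60177365 (minus strand). An exon of Gas1 overlaps opposite-strand Gm48488. Over 4 libraries each, Cdon had 41 counts in Ptch1cKO and 83 counts in WT, and Gas1 had 41 counts in Ptch1cKO and 21 counts in WT. The 95% intervals of their fold changes were 0.25 to 1.13 for Cdon and 0.94 to 4.46 for Gas1.

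The order of the 9 genes was compared in the deposited TPM, which scale for length but not for how well each gene is captured by the exome probes. Mean levels in Ptch1cKO were 133 TPM for Ptch1, 40.5 for Gli3, 16.0 for Smo, 5.26 for Gli2, 4.403 for Hhip, 4.29 for Boc, 1.59 for Gli1, 1.44 for Gas1 and 0.611 for Cdon. In WT they were 229.7 TPM for Ptch1, 37.3 for Gli3, 10.8 for Smo, 5.59 for Gli2, 5.08 for Boc, 1.23 for Cdon, 1.17 for Hhip, 0.742 for Gas1 and 0.728 for Gli1. The first 4 genes came in the same order in both genotypes, and in each genotype the ranges of Ptch1, Gli3 and Smo lay wholly above that of the next gene. Below them, Gli2, Hhip and Boc overlapped in Ptch1cKO, as did Gli2 and Boc in WT. In Ptch1cKO Hhip, at 1.54 to 6.99 TPM, also overlapped Gli1, at 0.642 to 2.95 TPM, and Gas1, at 0.754 to 2.35 TPM. Gli1, Gas1 and Cdon overlapped with the next of them in Ptch1cKO, and Cdon, Hhip, Gas1 and Gli1 did so in WT. Hhip stood in the fifth place in Ptch1cKO and in the seventh in WT.

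**Figure D4:**
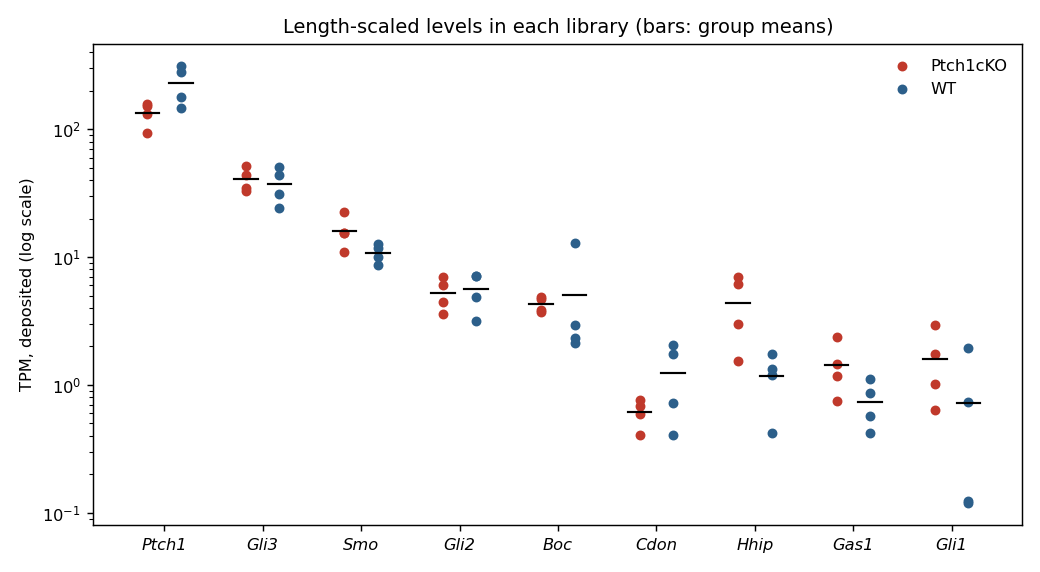
Deposited TPM of the 9 genes on a log axis, ordered by their mean in WT, with 1 point per library, Ptch1cKO left of WT, and bars for group means. Ptch1 is highest in all 8 libraries, at 92.8 to 156 TPM in Ptch1cKO and 146 to 313 TPM in WT.

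Libraries differed in a way that many members shared. Ptch1cKO replicate 3 was the lowest of its group in CPM for 7 of the 9 genes, all but Gli3 and Boc, and it had the fewest counts and the lowest astrocyte marker sum of the 8 libraries. WT replicate 2 was the lowest of its group for 5 of the 9, and it had the lowest astrocyte marker sum in WT. The part of these features in the members' levels was not tested.

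**Figure D5:**
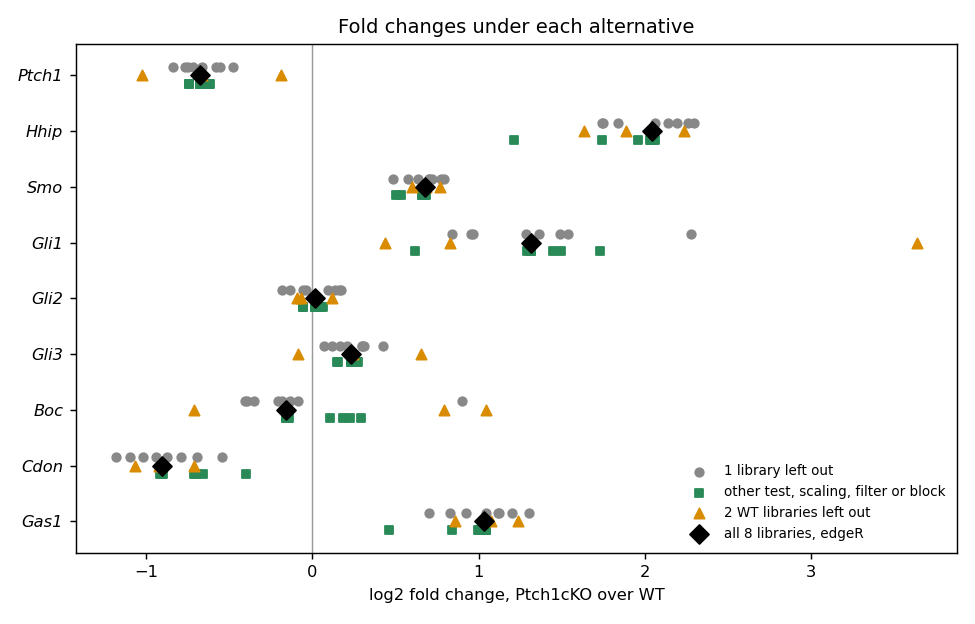
Log2 fold changes (Ptch1cKO over WT) of the 9 genes with all 8 libraries (diamonds), with 1 library left out (circles), with 2 WT libraries left out (triangles) and with another test, scaling, filter or a replicate block (squares). Hhip, Smo, Gli1 and Gas1 stay above 0 and Ptch1 and Cdon below 0, whereas Gli2, Gli3 and Boc cross it.

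The rest of the pathway was examined through lists of its other genes. Of 9 genes for ligands and their release, 2 passed the count filter and 0 had an unadjusted p under 0.05. Scube1, a secreted protein that helps release lipid-modified ligand, was at 0.12 on the log2 scale (SE 0.35), and Disp2, a relative of the ligand exporter Disp1, at -0.010 (SE 0.22). Sonic hedgehog itself had 1 count in Ptch1cKO and 5 counts in WT over 4 libraries each. Of 6 further surface proteins 2 passed the filter, and 0 had an unadjusted p under 0.05. Among them Mgrn1, a ubiquitin ligase that lowers Smo at the surface, was at -0.17 (SE 0.15).

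Among transducers around Smo and the cilium, 11 of 14 listed names passed the filter, with 8 positive and 3 negative fold changes, a median log2 fold change of 0.29 and 0 calls over all genes. Stk36, a kinase related to fly Fused, was the 1 of these 11 with an unadjusted p under 0.05, a threshold passed by 9.34% of all genes tested. It had 5.97, 5.56, 4.67 and 6.11 CPM in Ptch1cKO, against 4.88, 0.786, 2.38 and 3.09 CPM in WT. WT replicate 1 lay among the Ptch1cKO libraries and the other 3 WT libraries below them. Its log2 fold change came to 1.01 (SE 0.44; edgeR, adjusted p = 0.489). The ciliary kinesin Kif7 had -0.70 (SE 0.50) and the arrestin Arrb2 0.49 (SE 0.36).

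All 13 kinases and degradation factors that act on Gli proteins passed the filter, of which 2 had positive and 11 negative fold changes, with a median log2 fold change of -0.14 and 0 calls over all genes. Fbxw11, an F-box protein that marks phosphorylated proteins including Gli3 for processing, had 122, 97.998, 114 and 121 CPM in Ptch1cKO, against 135, 144, 167 and 139 CPM in WT. Its groups did not overlap in the lower direction, as for 2.49% of all genes tested, and the log2 difference was -0.36 (SE 0.14; edgeR, unadjusted p = 0.0173, Benjamini-Hochberg adjusted p = 0.421). Spop, an adaptor for Gli degradation, had -0.20 (SE 0.13) and the kinase Gsk3b -0.16 (SE 0.13).

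Of 15 further Hedgehog target genes 7 passed the filter, 4 with positive and 3 with negative fold changes, a median of 0.26 and 0 calls over all genes. The cyclin Ccnd1 had 117, 108, 114 and 111 CPM in Ptch1cKO, against 91.0, 94.1, 85.4 and 91.8 CPM in WT. Its groups did not overlap in the higher direction, as for 2.52% of all genes tested. Its relative Ccnd2 went the other way, with 81.7, 53.2, 44.8 and 57.8 CPM in Ptch1cKO against 149, 117, 68.1 and 99.6 CPM in WT, where Ptch1cKO replicate 1 lay above WT replicate 3. The Wnt antagonist Sfrp1 had 34.9, 12.7, 22.6 and 48.4 CPM in Ptch1cKO, against 16.5, 21.4, 14.7 and 12.1 CPM in WT. The log2 fold changes were 0.32 (SE 0.13) for Ccnd1, -0.86 (SE 0.23) for Ccnd2 and 0.88 (SE 0.34) for Sfrp1, and adjusted p-values by edgeR were 0.461 for Ccnd1, 0.272 for Ccnd2 and 0.442 for Sfrp1.

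Genes whose profile over the 8 libraries was closest to that of a member were found by the mean absolute distance between log2 CPM profiles, each centred on its own mean. For Ptch1 they included Adamts20 and Ubr1, at distances of 0.11 and 0.14, where the median gene was at 0.47. Like Ptch1, Ubr1 had 78.1, 95.6, 67.1 and 85.6 CPM in Ptch1cKO, against 90.3 and 97.4 CPM in WT replicates 1 and 2 and 149.8 and 143 CPM in WT replicates 3 and 4. For Hhip they were Traf4, Atp2b4 and Tmem246, at 0.47, 0.47 and 0.48 with a median gene at 1.02. This distance depends on the size of a change as well as its pattern. It therefore cannot show whether genes with smaller changes followed the pattern of Hhip. Atp2b4, a plasma membrane calcium pump, had 32.1, 44.8, 31.2 and 56.9 CPM in Ptch1cKO, against 20.9, 15.7, 14.8 and 21.2 CPM in WT. For Smo they were Usp39, Fam134c and Gart, at 0.12, 0.13 and 0.14 with a median gene at 0.44.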

How the data were processed

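Per the labels' protocols, astrocytes were sorted by tdTomato, low-input RNA was amplified to cDNA, and coding sequence was enriched with exome capture probes. Per the submitters' processing notes, bcl2fastq 2.18, STAR 2.5 and mm10 were used. No source used here gives the counting program, its annotation or whether it used strand. Whole, unnormalized counts per gene symbol were deposited. The second table holds TPM computed by the authors, each column summing to 1000000.

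Tests ran in edgeR 4.0.16 under R 4.3.3. Genes kept by filterByExpr (minimum count 10, 10954 genes) plus the 9 members gave 10956 genes, which were scaled with TMM factors and compared between 4 Ptch1cKO and 4 WT libraries with the robust quasi-likelihood test, group being the only term. P-values were adjusted over all genes tested, with 0.05 as threshold, and 95% intervals used the fit's degrees of freedom. DESeq2 1.42.0, limma 3.58.1 on voom values and on log2(TPM + 0.1) and log2(TPM + 1), another scaling, other filters, left-out libraries and a replicate block were alternatives. All pairs of libraries differed by more than sampling noise (chi-square per degree of freedom at least 11.4).

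Gene positions and coding sequences come from GENCODE M21 and upstream sequences from RefSeq GRCm38.p6, in which 7 of the 9 symbols matched. Members, lists, tests and alternatives were chosen with earlier results of these data known. Named genes were the 9 members, the 3 tested genes with the smallest p of each pathway list, and the 3 genes nearest to Ptch1, Hhip and Smo in profile (prior count 2). Sonic hedgehog and the low-count genes of the closing section were chosen after their values were seen. Listed names with no row are not analysed here. Some genes that this rule names are not reported here.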

Additional observations from a re-analysis of the deposited data

Results flagged for a closer look

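The 4 libraries of a group were examined for a single library far from the other 3, in 30 groups of values, and 2 such libraries were found, where chance flags about 1 in 20 groups. Boc in WT replicate 3, at 20.8 CPM, stood far above the other WT libraries, and the sign of the Boc fold change turned without it. The endothelial markers in Ptch1cKO replicate 1, at a summed 14.2 CPM, stood above the other Ptch1cKO libraries and within the range of WT.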

How the results depend on the processing

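Smo, Gli1, Cdon and Gas1 kept their direction under every alternative run for them, and none passed the threshold where an adjusted p was given. DESeq2 gave none for Gli1, Cdon and Gas1, and Gli1 and Gas1 have no value under the count filter alone. Ptch1 and Hhip kept their direction in all 19 and passed in 1 and 2 of them. Without the filter on low counts, edgeR called 199 genes and 2 members, Ptch1 at -0.66 and Hhip at 2.05. These fold changes were close to those with the filter. The SEs were smaller, 0.15 against 0.22 for Ptch1 and 0.33 against 0.46 for Hhip. DESeq2 called 79 genes and 1 member, Hhip at 2.03. The number of genes called was 11 with all libraries and 1 to 19 when single libraries were left out. It was 2 with limma on log2(TPM + 0.1), 2 on log2(TPM + 1), 3 in the libraries with under 10 Xist counts, 7 without WT replicates 3 and 4, and 1 without WT replicates 1 and 2. The last 2 alternatives were added after the data were seen. Gli2 turned to -0.059 and -0.054 on the TPM scales, to -0.092 in the libraries with under 10 Xist counts and to -0.071 without WT replicates 1 and 2, and ran from -0.18 to 0.17 with single libraries left out. Gli3 turned to -0.086 without WT replicates 1 and 2. Boc turned to 0.22 with limma-voom, 0.19 and 0.11 on the TPM scales, 1.05 in the libraries with under 10 Xist counts and 0.79 without WT replicates 3 and 4, and ran from -0.41 to 0.90 with single libraries left out. The cause was not tested. On log2(TPM + 0.1) the median of all genes moved to -0.11, beside which Hhip was at 1.75, Smo at 0.54 and Ptch1 at -0.75.

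Libraries with the same title number had correlated deviations of -0.17 to 0.02. The columns of Ptch1cKO replicates 3 and 4 are numbered 4 and 5, and by column number the 3 shared numbers gave -0.17 to 0.02 as well. Neither numbering was taken to pair samples, and the block used the title numbers. With the replicate block 5 genes and 0 members were called, and Boc was at 0.29.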

Other observations

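Several pathway genes too low for the count filter are described next, picked once their values were known. Gpr161, a ciliary receptor that restrains the pathway through protein kinase A, had 3, 3, 9 and 12 counts in Ptch1cKO replicates 1 to 4, against 2, 0, 1 and 1 counts in WT replicates 1 to 4, without overlap in counts (edgeR without the filter, unadjusted p = 0.00622, Benjamini-Hochberg adjusted p = 0.233). How many other genes below the filter separate in this way was not examined.

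A pair of surface proteins that bind Hedgehog ligands had fewer counts in Ptch1cKO than in WT when the 4 libraries were added. Lrp2, a large endocytic receptor, had 0, 1, 0 and 4 counts in Ptch1cKO, against 6, 2, 11 and 2 counts in WT. Gpc3, a glypican that competes with Ptch1 for ligand, had 1, 2, 1 and 5 counts in Ptch1cKO, against 0, 8, 17 and 4 counts in WT. Both overlapped between groups, and neither passed (edgeR without the filter, Benjamini-Hochberg adjusted p = 0.587 for each).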
